A study of Mus musculus with 12 samples.

Results

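Ogt, the gene of the O-GlcNAc transferase, was 1 of the 84 glycosylation genes on a quantitative PCR array run on mouse dendritic cells, and was picked by its symbol in the deposited tables and by the matching well of each sample file. Its gene ID is 108155, and RefSeq places it on chromosome X of GRCm38.p6. The array was run on 4 groups with 3 deposited files each, 12 files in all. In the first, DC2.4 cells, an immortalized line from mouse dendritic cells, had been exposed to TGF-beta for 4 days, and the labels disagree on its dose, with 2.5 ng/ml in the growth protocol but 10 ng/ml in the treatment protocol. Unstimulated DC2.4 cells were their control. The third group was type 1 dendritic cells (DC1) sorted from MCA101 fibrosarcomas, which had grown from tumor cells injected under the skin of mice, and the fourth was DC1 from spleen. The sample labels call the tumor cells CD103-positive and the splenic cells XCR-1-positive, whereas the shared protocol describes a sort on CD103 and CD8, so that the marker and the tissue of origin cannot be told apart. They give no strain, sex or age of the mice. DC1 is the subset known for presenting tumor antigens to CD8 T cells.

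The enzyme places N-acetylglucosamine on serines and threonines of proteins of the nucleus, the cytosol and the mitochondria. It differs in this from the other sugar transferases of the panel, which act in the endoplasmic reticulum and the Golgi apparatus or on their products. Its donor sugar is UDP-GlcNAc, the end product of the hexosamine pathway, and the hydrolase Oga removes the modification again. In mammalian cells the amount of productively spliced Ogt mRNA is known to respond to the level of O-GlcNAc through an intron that can be retained. In immune cells, NF-kappaB proteins are among the known substrates. The primer positions on the array are not given in the sources used here, so the form of the transcript that was measured is not known.

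Each file lists the threshold cycle (Ct) of every well, the PCR cycle in which the product crosses a detection threshold. A Ct lower by 1 stands for about 2 times as much template. The third file of each group was computed from the other 2. For Ogt, the third Ct was 25.5 with TGF-beta, which is the mean of the first 2 files, 28.0 and 27.1, divided by 1.08. In unstimulated cells it was 21.1, the mean of 24.8 and 21.7 divided by 1.1. In tumor DC1 the third value was 28.4, from 28.1 and 27.6 times 1.021, and in splenic DC1 it was 29.3, from 26.4 and 31.1 times 1.021. Over all wells, 310 of 336 followed this relation within 0.002 cycles. All results below therefore rest on the first 2 files of each group, n = 2, or 8 measured samples in all. In the second file of the tumor group and the third file of the splenic group, every value stood 1 well early. With both files moved by 1 well, 75 of 75 wells of the tumor group and 76 of 86 of the splenic group followed the relation, and 0 did so as deposited. Nothing in the labels says that the 2 files of a group came from separate cultures or animals, so each p-value covers the scatter among these samples alone, and that scatter may be technical. None of 19 lineage markers looked up was on the panel, so the labelled cell types could not be checked.

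Levels are given as the mean Ct of the 5 reference wells (Actb, B2m, Gapdh, Gusb and Hsp90ab1) minus the Ct of the gene, a log2 scale on which 1 unit is 2 times as much RNA relative to those wells. The files name the Actb well alone, and the other 4 names are those of the manufacturer's usual layout. In bulk RNA, fewer cells that express a gene and less RNA per cell cannot be told apart. Ogt was at a Ct between 21.7 and 31.1 in the 8 samples, so no value was set by the limit of 35 used for late wells. Between 64 and 76 of the 84 genes were under that limit. A well that the manufacturer's usual layout gives to a genomic DNA control was blank or over Ct 40 in 7 of the 8 samples, and at 34.2 in the first tumor sample, where Ogt was at 28.1.

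Ogt was lowest in the TGF-beta-treated line and had its widest scatter there. Its log2 level was -5.96 and -10.17 in the 2 TGF-beta-treated samples, against -4.14 and -4.71 in the unstimulated samples. Both treated samples lay below both unstimulated ones, and the second treated sample lay 4.21 below the first, a gap of 18.6-fold. In DC1 the level was -4.16 and -5.19 in the tumor samples, against -4.09 and -6.76 in the splenic samples. These groups overlapped, with 1 splenic sample above and 1 below both tumor samples. As means, the level was -8.06 ± 2.98 with TGF-beta, -4.42 ± 0.41 in unstimulated cells, -4.68 ± 0.73 in tumor DC1 and -5.43 ± 1.88 in splenic DC1 (SD, n = 2 each). From high to low the order was unstimulated DC2.4, tumor DC1, splenic DC1 and TGF-beta-treated DC2.4, and each neighbouring pair in that order had overlapping samples.

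**Figure D1:**
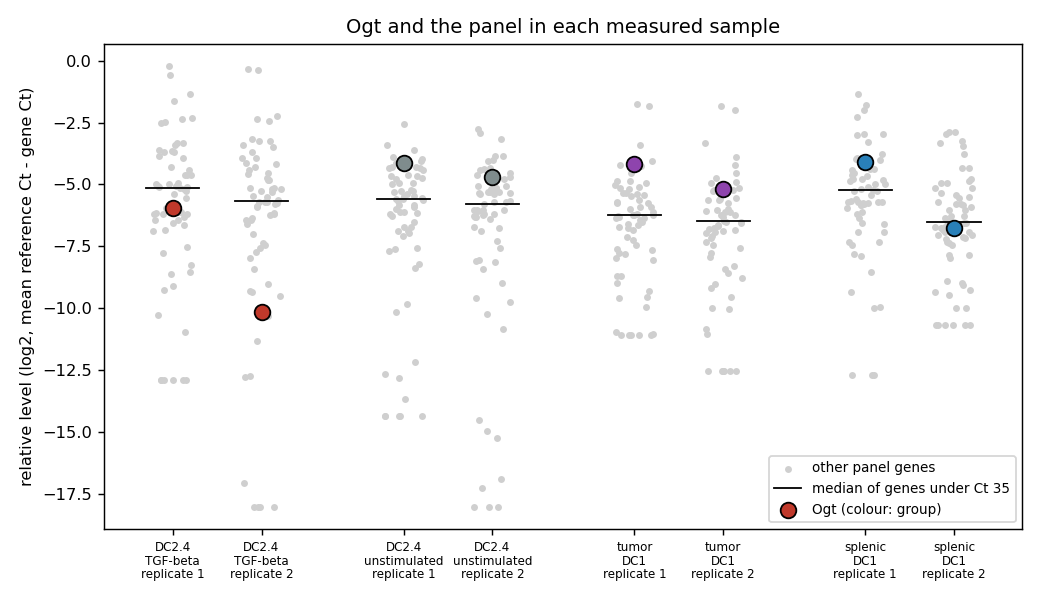
Relative level (log2, mean reference Ct minus gene Ct) of Ogt as large points, coloured by group, and of the other 65 genes kept in both comparisons as grey points, in the 8 measured samples; black lines mark the median of genes under Ct 35. Ogt stood above that line in both unstimulated and both tumor samples and in 1 splenic sample, and 4.51 below it in the second TGF-beta-treated sample.

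Ogt was also ranked, in each sample, among the 66 panel genes kept in both comparisons. Counted from the highest level, it was 37th and 57th in the TGF-beta-treated samples, against 7th and 15th in the unstimulated samples. It was 5th and 12th in the tumor DC1 samples, against 13th and 37th in the splenic DC1 samples. Ogt thus stood in the upper part of the panel in 5 of the 8 samples, near the middle in 2 and low in 1. Against the median of the genes under Ct 35, Ogt was -0.80 and -4.51 with TGF-beta and 1.44 and 1.07 without it. The same measure was 2.09 and 1.30 in tumor DC1 and 1.15 and -0.26 in splenic DC1. Such ranks also carry the efficiency of each primer pair, which is not known, so they order Ct values rather than molecules.

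By group mean, Ogt was 53rd with TGF-beta, between Pomt1, an O-mannosyltransferase (-7.63), and Galnt4, which initiates mucin-type O-glycans (-8.33). In unstimulated cells it was 11th, between Mgat4b, an N-glycan branching enzyme (-4.32), and the lysosomal sialidase Neu1 (-4.45). It was 8th in tumor DC1, between the mannosidase Man1b1 (-4.54) and the fucosidase Fuca2 (-4.73). In splenic DC1 it was 25th, between the Golgi mannosidase Man1c1 (-5.33) and Nagpa, which uncovers the mannose 6-phosphate tag (-5.51).

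The first comparison asked whether Ogt differed in DC2.4 cells exposed to TGF-beta. Its log2 difference, TGF-beta minus unstimulated, was -3.64 ± 1.60 SE (n = 2 per group), a mean fold of 12.4 lower, and it did not pass limma's test (adjusted p = 0.41, unadjusted p = 0.089). The 95% interval of the difference ran from -8.18 to 0.91. Of 69 genes tested, Ogt had the lowest log2 difference but only the 15th smallest p. The next lowest were Neu3, the sialidase of the plasma membrane (-2.04 ± 0.54), and Fuca1, the lysosomal fucosidase (-1.80 ± 0.69). The median of all 69 genes was 0.29, so Ogt lay 3.93 below it. By limma 0% of the 69 genes passed at an adjusted p of 0.05, and 15.9% (11 genes) were below 0.05 before adjustment. The treated samples were both below the unstimulated ones in 10.1% of genes, and Ogt was among them.

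The single pairs show how unevenly this came about. The treated sample closest to an unstimulated one was 2.37-fold lower, and the most distant pair differed 65.5-fold. With groups of 2, an exact permutation test of Ogt alone gave p = 0.333 (two-sided), the smallest value this design allows. In the raw cycles, the second treated sample was ahead of the first by 5.10 cycles in the mean of the reference wells and by 4.87 cycles in the median gene, but by 0.89 cycles for Ogt. The mean reference Ct differed between the samples of both DC2.4 groups, at 22.1 and 17.0 with TGF-beta and 20.6 and 17.0 without it, and its part in the result was not tested. Among 60 genes kept in both comparisons, the gap of Ogt between the treated samples was the second widest after B3gnt8, a polylactosamine enzyme (7.03). The median gene of these 60 had a gap of 0.75. Genes left out in DC1 were not among them, and some of those tested here had wider gaps than Ogt. These were St8sia6 (Ct 29.3 and 34.2 in the first and second treated samples), B3gnt4 (23.8 and 27.3), Galntl6 (31.8 and 34.9) and Uggt1 (29.1 and 19.0). In unstimulated cells, the second sample was ahead by 3.68 cycles in the reference wells and by 3.10 for Ogt, and the gap of Ogt, 0.58, was near the median of 0.48.

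**Figure D2:**
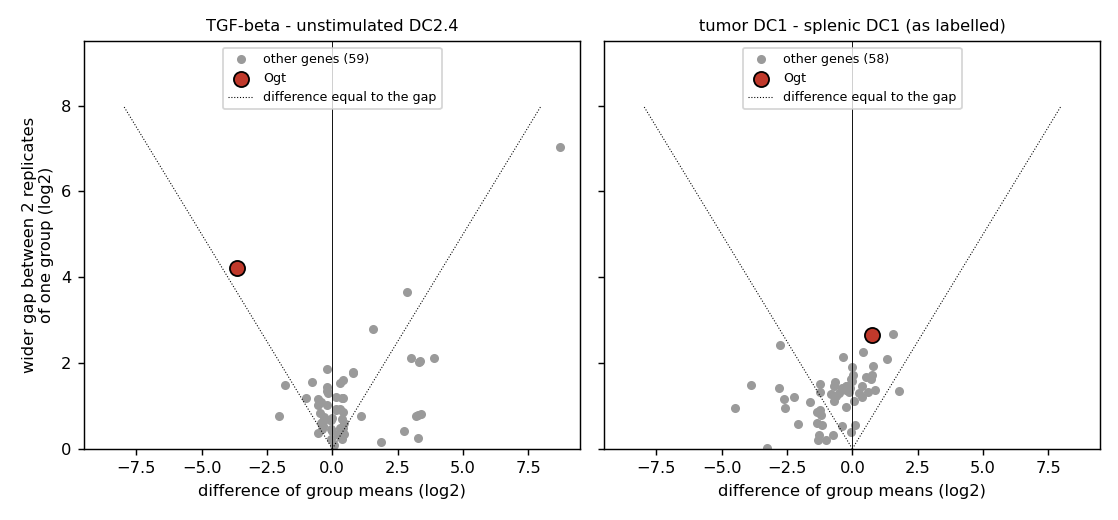
Each point is a gene: the horizontal axis is the difference of group means (log2), the vertical axis the wider of the 2 gaps between replicates of one group (log2), for TGF-beta minus unstimulated DC2.4 (left) and tumor minus splenic DC1 as labelled (right). On the dotted lines both are equal; Ogt, at -3.64 with a gap of 4.21 on the left and at 0.75 with a gap of 2.66 on the right, lies inside them in both panels.

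Single samples decided much of the value. Without the first TGF-beta-treated sample the difference was -5.74 and passed (adjusted p = 0.00066), and without the second it was -1.53 and did not (adjusted p = 0.19). The lone treated sample is then assumed to vary like the unstimulated ones, which lay close together. Over all alternatives the adjusted p lay between 0.00066 and 0.93. The sign was negative in each of 24 alternatives, but many of them could not change it. Other late limits, filters and variance models leave the difference of Ogt at -3.64. With single samples left out the sign was fixed too, since both treated samples lay below both unstimulated ones. Over 11 choices of reference the difference lay between -4.44 and -3.13, while the median of all genes lay between -0.52 and 0.80. A change of reference shifts all genes alike and cannot move the rank of Ogt. In 6 alternatives with other samples or another source of values, Ogt had the lowest difference of the tested genes in 4. It was the second lowest in the values of the series matrix and the fifth without the second treated sample.

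**Figure D3:**
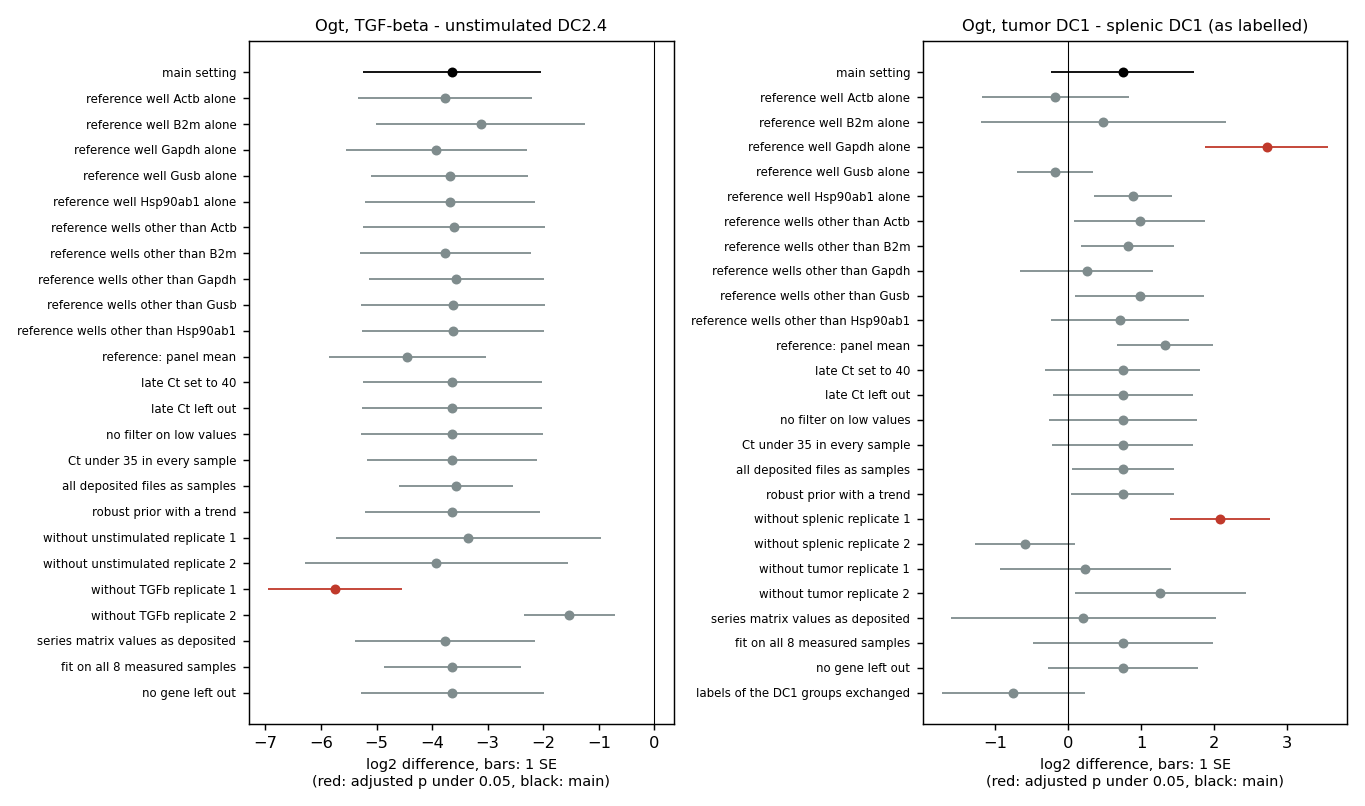
Log2 difference of Ogt (points) with its standard error (bars) under each setting, for TGF-beta minus unstimulated DC2.4 (left) and tumor minus splenic DC1 as labelled (right); red marks an adjusted p under 0.05 and black the setting reported. On the left all values lie between -5.74 and -1.53, and on the right they lie on both sides of 0, between -0.75 and 2.72.

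The authors' deposited table of fold changes, normalized to beta-actin per its header, listed Ogt at 0.28, 0.18 and 0.15 for TGF-beta-treated over untreated cells. In the authors' deposited table these were the 4th, 4th and 2nd lowest of 83 genes, beside medians of 1.42, 0.89 and 1.34. With the Actb well alone, the sample files gave a log2 difference of -3.77, where the authors' deposited table corresponds to -1.84, -2.47 and -2.74. Both sources thus put Ogt lower with TGF-beta, by unequal amounts, and which samples each column of the table holds is not stated.

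The second comparison set tumor DC1 against splenic DC1 for Ogt. Which group is the higher one cannot be settled from these files, since across genes the authors' deposited table runs opposite to the Ct values. Across 62 genes, the log2 differences from the files had a Spearman correlation between -0.97 and -0.96 with the authors' deposited table for tumor over spleen, and across 69 genes one between 0.87 and 0.96 with its TGF-beta columns. Genes are not independent replicates, so no p is given. As labelled in the files, the log2 difference of Ogt, tumor minus splenic, was 0.75 ± 0.98 SE (n = 2 per group), a fold of 1.68 higher (adjusted p = 0.77 by limma), with a 95% interval from -1.57 to 3.06. The exact permutation test gave p = 1.0, and the groups were apart in 48.4% of all genes but not for Ogt. With the labels of the DC1 groups exchanged the value would be -0.75. For tumor over spleen, the ratios of Ogt in the authors' deposited table were 0.459, 0.443 and 0.458, the 11th, 8th and 9th lowest of 83 genes. On the log2 scale these are -1.12, -1.17 and -1.13. With the Actb well alone, the reference of that table, the difference of Ogt from the files was slightly negative. It lay above the median of all 62 genes there, as given below. The authors' ratios of Ogt lay below the medians of their table, 0.999, 1.01 and 0.969. Relative to the other genes, both sources thus put Ogt on opposite sides.

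At this number of samples no difference in Ogt between tumor and splenic DC1 was detectable, and its interval includes changes of several-fold either way. Of 62 genes tested, 8.06% passed, all of them lower as labelled, and Ogt had the 6th highest log2 difference, 1.14 above the median of -0.39. With the DC1 labels exchanged, 5 genes would pass as higher, and Ogt would have the 6th lowest difference, beside a median of 0.39. The splenic samples carried most of the spread. Their gap in Ogt was 2.66, or 6.34-fold, the second widest of 60 genes after Galnt12, a mucin-type initiator (2.67), where the median gap was 1.31. The tumor samples were 1.03 apart, the 7th widest of 60 genes, where the median gap was 0.33. Without the first splenic sample the difference was 2.08, and without the second splenic sample it was -0.58. Each of these fits keeps a lone splenic sample, so the scatter of that group is no longer measured.

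The reference wells moved this value across 0. With the Gapdh well alone it was 2.72 and passed (adjusted p = 0.013), and with the Actb or the Gusb well alone it was -0.17 and -0.18. The median of all 62 genes moved along, to 1.58 with Gapdh and -1.32 with Actb or Gusb, since a change of reference shifts all genes alike. Against Gapdh, a glycolytic enzyme, Ogt was at -2.33 and -3.52 in tumor DC1, against -4.25 and -7.03 in splenic DC1, and the tumor samples were both higher, as they were with this well in 69.4% of the 62 genes. Against Gusb, a lysosomal enzyme, Ogt was at -1.92 and -2.86 in tumor DC1, against -1.40 and -3.03 in splenic DC1. Those groups overlapped. In the DC2.4 line the difference lay between -3.92 and -3.13 with any single well. Against Gusb, Ogt was at -3.30 and -7.02 with TGF-beta, against -1.47 and -1.48 without it. Against Actb it was at -7.28 and -11.44 with TGF-beta, against -5.57 and -5.61 without it.

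The third comparison asked whether Ogt behaved differently in the 2 settings, in a fit on all 8 measured samples. The tumor effect minus the TGF-beta effect was 4.39 ± 1.74 SE, which did not pass limma's test (adjusted p = 0.13, unadjusted p = 0.029), with a 95% interval from 0.54 to 8.23. It was the highest value of the 62 genes, whose median was -0.63. Fuca1 came next (3.57 ± 1.00, adjusted p = 0.025) and then Neu3 (2.79 ± 0.98, adjusted p = 0.085). Among the 62 genes 17.7% passed, 1 higher and 10 lower. With the Actb or the Gapdh well alone Ogt passed, at 3.59 (adjusted p = 0.049) and 6.64 (adjusted p = 0.012). Without the first treated sample it was 6.49, and without the second 2.28, each time with a lone treated sample of unmeasured scatter. Over all alternatives the adjusted p lay between 0.00050 and 0.72. With the DC1 labels exchanged it would be 2.89, the second highest, and would not pass (adjusted p = 0.71), beside a median of 0.02. By limma 0 of the 62 genes would then pass in either direction, and 1 would have an unadjusted p under 0.05.

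The sorted cells were also set against the line, within the tumor and TGF-beta pair and within the pair of controls. The log2 difference was 3.39 ± 1.23 SE for tumor DC1 minus TGF-beta-treated DC2.4 (adjusted p = 0.055, 10.4-fold higher), the 5th highest of 62 genes. For splenic DC1 minus unstimulated DC2.4 it was -1.0 ± 1.23 SE (adjusted p = 0.54), and the difference between both values is the quantity of the third comparison, which did not pass. In the first of these 33.9% of the 62 genes passed, 7 higher and 14 lower, and in the second 12.9% passed, all of them higher. Both tumor samples lay above both TGF-beta-treated samples, which was so for 22.6% of genes. With the DC1 labels exchanged, Ogt would be at 2.64 against TGF-beta-treated cells (adjusted p = 0.15) and the control value would be -0.25 (adjusted p = 0.90). The tumor value passed in 11 of 23 alternatives, whose adjusted p lay between 0.00018 and 0.48, and single samples moved it. Without the first treated sample it was 5.49, and without the second 1.28, each time with a lone treated sample of unmeasured scatter. The control value turned to 0.33 without the second splenic sample and was -2.33 without the first. Cell line and sorted cells differ in culture, origin and handling at once, which cannot be told apart from each other here.

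Of the enzymes that share the pathway with Ogt, few were on the panel. Of 4 names listed for O-GlcNAc cycling, Ogt, Oga with its older symbol Mgea5, and Eogt, only Ogt was there. None of 5 hexosamine pathway genes was measured. The panel did hold 17 of 21 other GlcNAc transferases that draw on UDP-GlcNAc, all of which act in the secretory pathway. With TGF-beta, 0 of 13 tested passed in either direction, against 0% of all genes, and their median log2 difference was 0.40, beside 0.29 over all genes. The sign was positive in 9 and negative in 4, beside 42 and 27 of all 69 genes, a like share. The highest were the polylactosamine enzymes B3gnt8 (8.73 ± 3.19) and B3gnt4 (5.35 ± 3.30). The lowest were B3gnt2, of the same family (-0.44 ± 0.49), and Mgat4b (-0.21 ± 0.68). Ogt, at -3.64, lay below each of them.

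In tumor against splenic DC1, as labelled, 1 of 12 tested GlcNAc transferases passed, as lower, against 8.06% of all genes, a like share, and their median was -1.26, beside -0.39 over all genes. The lowest were B3gnt8 (-3.88 ± 0.75, adjusted p = 0.020) and B3gnt3 (-2.78 ± 0.89). The highest were Mgat2 (-0.09 ± 0.73) and Mgat1 (-0.20 ± 0.73), which start the antennae of complex N-glycans. All 12 were negative, as were 45 of all 62 genes, and Ogt was at 0.75. With the DC1 labels exchanged all 12 would be positive and Ogt would be at -0.75. For the difference between the settings, 4 of 12 passed as lower, against 10 of all 62 genes, and the median was -1.04, beside -0.63 over all genes. With the labels exchanged 0 of the 12 would pass by limma, with a median of -0.08.

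Over the 8 measured samples, the highest Pearson correlation of 61 genes with Ogt was 0.67, for St6gal1, which caps N-glycans with alpha-2,6 sialic acid (Spearman 0.83). Neu3 (0.63), Nagpa (0.56), Mogs, which trims the first glucose from N-glycans (0.54), and Galnt12 (0.52) came next. Galnt12 was past the limit for late wells in the first TGF-beta-treated sample (Ct 45.5) and the first unstimulated sample (Ct 36.6). Its correlation therefore includes levels set by that limit. The median over the 61 genes was 0.02. The samples share groups and reference wells, so these values describe the 8 samples and carry no p. Without the second TGF-beta-treated sample, the correlation was 0.63 for St6gal1, 0.65 for Neu3, 0.67 for Nagpa and 0.52 for Mogs, but 0.07 for Galnt12. The highest value without that sample was 0.81, for the lysosomal mannosidase Manba, which was at 0.05 with it. The sizes differed. Ogt spanned 6.08 log2 units between its highest and lowest sample, the 8th widest range of 62 genes, whereas St6gal1 spanned 2.01 and Nagpa 1.72. In the second treated sample St6gal1 was at -6.99, against -6.12 in the first. In unstimulated cells it was at -5.85 and -6.88. St6gal1 was thus also lowest in the second treated sample, but lay close to its other low values there, unlike Ogt.

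**Figure D4:**
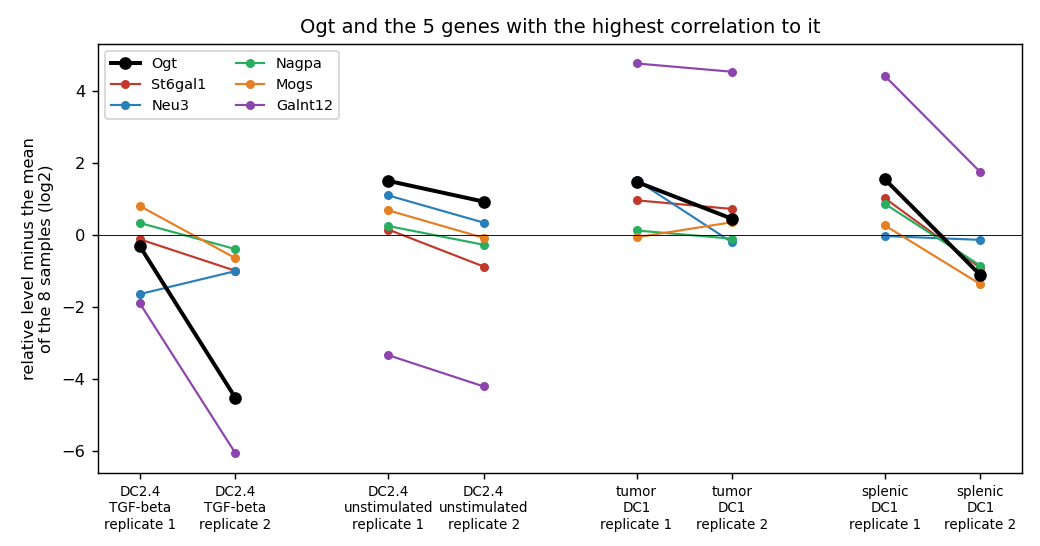
Relative level (log2) of Ogt in black and of the 5 genes with the highest correlation to it, each minus its own mean over the 8 measured samples; lines join the 2 replicates of a group. In the second TGF-beta-treated sample Ogt lay far below St6gal1, Neu3, Nagpa and Mogs, and only Galnt12, which spans 10.8 log2 units, lay lower. The levels of Galnt12 in the first TGF-beta-treated sample (Ct 45.5) and the first unstimulated sample (Ct 36.6) were set by the limit for late wells. Its course within the DC2.4 groups and its span therefore depend on that limit.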

How the data were processed

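Expression was measured on a glycosylation PCR array of 96 wells, from 50 to 100 ng of RNA per sample, using SYBR Green detection, per the labels' protocols. The authors deposited the Ct of each well per sample. The deposited series matrix holds Ct minus the beta-actin Ct, a log2 scale, in the authors' values. In the files whose values stood early, it subtracts the Ct of the well after Actb's, named B2m here. The authors also deposited ratios, a fold of test over control, per the file headers. The cycle thresholds and software are not given in the sources used here.

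A well took the gene whose series matrix row equalled its Ct minus that of Actb, within 0.002 cycles. RefSeq held 83 of the 84 panel symbols and listed 1 as a synonym. Actb is named in the files, and the other 4 reference wells follow the manufacturer's usual layout. Ct over 35 and blank wells were set to 35. Left out were 11 genes in DC2.4 and 15 in DC1, where the third file broke its relation to the other 2 or where splenic wells held whole or repeated values. A gene was tested where at least 50% of the samples fitted were under Ct 35. Differences were fitted across all such genes with limma 3.58.1 in R 4.3.3 (two-sided, Benjamini-Hochberg over the genes tested, threshold 0.05), on 4 samples for the first 2 comparisons and on 8 for the others. The design named the third files as left out if computed. The fit was tested on simulated data. Descriptions and plots were made with scipy 1.17.1, pandas 2.3.3 and matplotlib 3.10.9 under Python 3.11.15.

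Ogt, the gene lists and the tests were chosen with earlier results of these data known. Genes named were Ogt, the 5 with the highest Pearson correlation to it, its neighbours in each group's order, the reference wells and the 2 highest and 2 lowest of each list. One further list is not reported here. Fuca1, Neu3, Manba and other genes named as extremes were picked with their values in view. The settings varied were the reference wells, late Ct, the filter, the samples, the variance model and the source of values; exchanging the DC1 labels was added after seeing the data. No depth beyond the Ct is known.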

Additional observations from a re-analysis of the deposited data

How the results depend on the processing

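For TGF-beta minus unstimulated, leaving out single samples gave -5.74 to -1.53. Of its 24 alternatives 23 kept the direction and the side of the threshold, but many of them cannot change the difference of Ogt. For tumor minus splenic DC1, 19 of 25 kept both. It turned to -0.17 with Actb alone, -0.18 with Gusb alone, -0.58 without the second splenic sample and -0.75 with the DC1 labels exchanged. With Gapdh alone it passed at 2.72. Leaving out single samples gave -0.58 to 2.08, and a fit of this kind also passed, resting on a lone sample of unmeasured scatter. The difference between the effects passed at 3.59 with Actb alone, 6.64 with Gapdh alone and 4.33 with all deposited files. With single samples left out it lay between 2.28 and 6.49, and a fit with such a lone sample passed too. Splenic DC1 minus unstimulated DC2.4 lay between -2.33 and 0.33 with single samples left out and passed in none of 23 alternatives. Tumor DC1 minus TGF-beta-treated DC2.4 passed at 6.16 with Gapdh alone and 4.02 with Hsp90ab1 alone. It also passed with the wells other than Actb (3.85), B2m (3.63), Gusb (3.54) or Hsp90ab1 (3.23) and with the panel mean (4.28). The same held with genes under Ct 35 in every sample (3.39) and with all deposited files (3.15). Single samples left out gave 1.28 to 5.49, and passing was seen there too, again with a lone sample in a group. The cause of these shifts was not tested, except that the computed files add samples without spread of their own. The count of genes past the threshold was 0 with TGF-beta and reached 15 over the alternatives, and was 5 in DC1, between 0 and 38. In the second tumor sample the series matrix kept the value of the well after Ogt's under its name. It also subtracted the B2m well there in place of Actb. Its DC1 values (0.21 for tumor minus splenic) are therefore not those of Ogt alone, nor all against Actb. No paired analysis was possible because the labels number the samples through and give the groups no shared replicate numbers. With 2 samples per group, the number of samples limits what can be detected.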
